A study of Mus musculus with 6 samples.

Results

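Border-associated macrophages are the resident macrophages of the brain's outer surfaces: the leptomeninges, the spaces around blood vessels and the choroid plexus. They are close relatives of microglia, which sit inside the tissue, but they take up proteins, sugars and haemoglobin from the fluid around vessels through a set of scavenger and lectin receptors that resting microglia express little or not at all. 8 genes that mark these cells were examined: Mrc1, Cd163, Lyve1, Folr2, Clec10a, F13a1, Pf4 and Cbr2. They were chosen by name, and each matched 1 gene among the 54752 genes of the count tables. All 8 had enough counts to be tested.

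The data are RNA-seq counts from the entire right hippocampus of 6 male wild-type C57BL/6 mice (C57BL/6 J in the methods), for which the labels give 14 weeks, taken here as age. In the bilateral carotid artery stenosis (BCAS) group (n = 3) a microcoil was wound around each common carotid artery, the narrower one on the right, which lowers blood flow to the brain. Sham mice (n = 3) went through the same surgery and received no coils. Tissue was taken 3 weeks after surgery, each library comes from a single mouse, and the comparison asks which genes changed in the hippocampus under chronic hypoperfusion. Because bulk tissue was sequenced, a change in the number of macrophages and a change in RNA per macrophage cannot be told apart. Nor can either be told apart from changes in other cells that express these genes, or in the make-up of the tissue.

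The libraries held 29652456 to 35607098 counts. Levels are given as CPM, the usual unit of counts scaled to a common library size, after TMM normalization, which scales each library by a factor estimated from the bulk of the genes. Genes were compared with edgeR's quasi-likelihood test over 18617 tested genes, with Benjamini-Hochberg adjustment over these. Differentially expressed genes (DEGs) are those with a log2 fold change beyond 1 in either direction whose adjusted P was below 0.05. Markers of hippocampal neurons were present in every library, with 8 genes summing to 1013 to 1091 CPM in the sham group and to 534 to 745 CPM in the BCAS group. Of these 8 neuronal genes 4 were down-regulated DEGs, against 0.999% of all tested genes. Choroid plexus epithelium was carried along in very unequal amounts: its 7 marker genes summed to 1000, 4130 and 72.1 CPM in sham mice 1 to 3 and to 6007, 48.8 and 3262 CPM in BCAS mice 1 to 3. None of these 7 genes passed the test, and the groups overlapped.

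Of the 8 border-associated macrophage genes, 6 were up-regulated DEGs after BCAS (Mrc1, Cd163, Folr2, Clec10a, F13a1 and Cbr2), and 2 did not pass (Lyve1 and Pf4). Among all tested genes, 8.47% were up-regulated DEGs. These calls apply the threshold of 1 to the estimated fold change, and when edgeR's glmTreat tested whether the fold change itself exceeded it, 0 of the 8 genes passed (818 of all tested genes did). With 1 mouse left out the count was 3 to 6 of the 8: 3 without BCAS mouse 3, and 4 without sham mouse 1, sham mouse 2 or BCAS mouse 1. For each of the 6 genes every BCAS mouse lay above every sham mouse, which was the case for 25.3% of all tested genes. The median log2 fold change of the 8 genes was 1.20, against 0.02 over all tested genes. Single genes ranged from 0.14 for Lyve1 to 1.98 for Folr2. The levels were low throughout, with 4 to 461 counts for a gene in a library, so the precision differed widely between the genes.

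**Figure D1:**
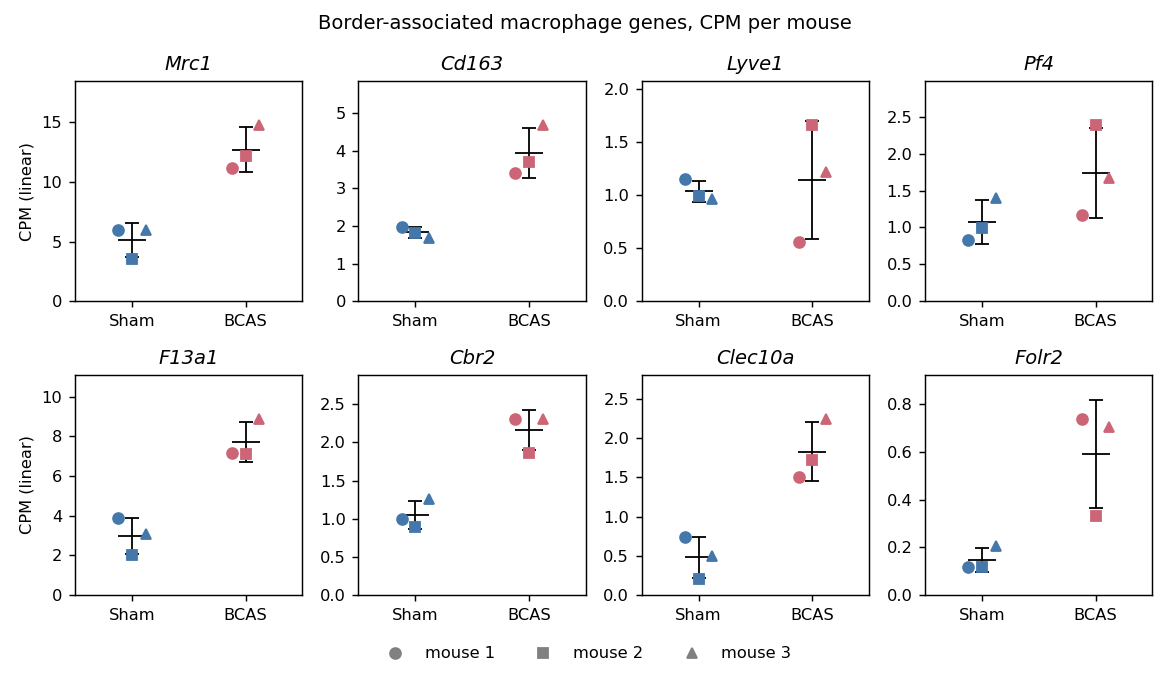
CPM (linear axis from 0) of the 8 border-associated macrophage genes in each sham mouse (blue) and BCAS mouse (red), with symbols for mice 1 to 3 and bars for the mean and SD. The groups are apart for 6 genes and overlap for Lyve1 and Pf4, where BCAS mouse 1 lies lowest and BCAS mouse 2 highest of the BCAS mice.

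RefSeq promoter sequences (build GRCm38.p6, 250 bases before to 50 bases after each start) were found for 6 of the 8 genes, and are shown here because PU.1, the transcription factor that macrophage genes share, binds a purine-rich site. The letters GAGGAA, the core of such a site, were searched on both strands. They occurred in the windows of 4 of the 6 genes (Mrc1, F13a1, Cbr2 and Pf4) and in 28.3% of all 32851 promoter windows. F13a1 and Folr2 have 2 windows each, and a gene was counted if any of its windows held the letters. The share is over single windows, so the 2 measures differ, also for the other motifs below. Such a match is a description of letters and not a measured binding site. The stretches below run 5′ to 3′ on the gene's strand, end at or a few bases before the gene's start in the count tables, and carry matches to GAGGAA or its reverse complement TTCCTC in capitals. They show Mrc1 (chr2:14229242-14229391, plus strand), F13a1 (chr13:37050245-37050394, minus strand) and Pf4 (chr5:90772285-90772434, plus strand), which hold the letters, and Cd163 (chr6:124304501-124304650, plus strand), which does not.
Mrc1: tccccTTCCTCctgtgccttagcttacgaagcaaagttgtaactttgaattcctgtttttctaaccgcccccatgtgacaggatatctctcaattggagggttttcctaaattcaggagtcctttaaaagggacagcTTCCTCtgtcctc
F13a1: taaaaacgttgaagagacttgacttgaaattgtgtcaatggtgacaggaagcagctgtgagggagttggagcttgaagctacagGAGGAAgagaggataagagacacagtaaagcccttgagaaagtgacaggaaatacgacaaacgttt
Pf4: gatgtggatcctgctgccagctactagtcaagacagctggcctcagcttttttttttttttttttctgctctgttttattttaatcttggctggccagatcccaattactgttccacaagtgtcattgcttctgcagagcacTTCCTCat
Cd163: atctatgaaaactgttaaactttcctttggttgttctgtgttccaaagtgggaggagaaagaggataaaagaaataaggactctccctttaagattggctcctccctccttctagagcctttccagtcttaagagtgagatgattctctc
A promoter with the letters therefore belonged both to genes that passed the test and to Pf4, which did not. The half-site of MAF factors, TGCTGAC, was found on either strand in the window of Cbr2 alone among the 6 genes and in 4.67% of all windows. A TATA box written as TATAAA was found on either strand in none of the 6 and in 13.6% of all windows.

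Among the endocytic receptors and of all 8 genes, Mrc1 had the most counts in every library. Mrc1 (ENSMUSG00000026712.3, chromosome 2 of mm10, 14229392 to 14332057) encodes the mannose receptor CD206, which takes up glycoproteins with mannose ends. It had 202, 118 and 206 counts in sham mice 1 to 3 and 362, 368 and 461 counts in BCAS mice 1 to 3. In CPM these were 5.96, 3.53 and 6.01 in sham mice and 11.1, 12.2 and 14.8 in BCAS mice. The lowest BCAS mouse thus lay above the highest sham mouse, and sham mouse 2 was below the other two. Mean levels were 5.17 ± 1.42 CPM under sham and 12.7 ± 1.87 CPM under BCAS (SD, n = 3 each), and the log2 fold change was 1.30 ± 0.22 (SE; adjusted P = 0.00262 by edgeR).

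Cd163 (ENSMUSG00000008845.9, chromosome 6, 124304656 to 124330527) encodes the receptor that clears complexes of haemoglobin and haptoglobin. Its level was 1.98, 1.83 and 1.69 CPM in sham mice 1 to 3 and 3.42, 3.71 and 4.68 CPM in BCAS mice 1 to 3. The sham mice were close to each other, and BCAS mouse 3 was highest. The log2 fold change was 1.10 ± 0.22 (SE; adjusted P = 0.00556 by edgeR). Without BCAS mouse 3 the log2 fold change was 0.95, under the threshold of 1, at an edgeR adjusted P of 0.0187.

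Folr2 (ENSMUSG00000032725.10, chromosome 7, 101839988 to 101857194, minus strand) encodes folate receptor beta, which is anchored in the membrane of tissue macrophages. It had the fewest counts of the 8 genes, with 4, 4 and 7 counts in sham mice 1 to 3 and 24, 10 and 22 counts in BCAS mice 1 to 3. The groups did not overlap, with 0.118 to 0.204 CPM in sham mice and 0.332 to 0.739 CPM in BCAS mice. The log2 fold change was the largest of the 8 and the least precise, at 1.98 ± 0.52 (SE; 95% interval 0.79 to 3.17; adjusted P = 0.0205 by edgeR). Of the 1546 exonic bases of Folr2, 975 are also exonic in Gm10602 on the opposite strand, and reads there were assigned to neither gene because strand was ignored in the counting. The counts of Folr2 thus come from the remaining 571 bases. Gm10602 itself had 18 to 29 counts in the sham group and 31 to 43 counts in the BCAS group and did not pass (log2 fold change 0.74, edgeR adjusted P = 0.147). With the counts of both genes summed, the log2 fold change was 1.06 (edgeR adjusted P = 0.0195), an alternative chosen after seeing the overlap. The Folr2 call was lost when sham mouse 1, sham mouse 2, BCAS mouse 1 or BCAS mouse 3 was left out. The log2 fold change was then 1.79 to 1.85, at edgeR adjusted P values of 0.0758 to 0.0786.

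Clec10a (ENSMUSG00000000318.16, chromosome 11, 70156197 to 70170834) encodes the macrophage galactose-type lectin MGL1, also made by some dendritic cells. Sham mice 1 to 3 had 25, 7 and 17 counts, and BCAS mice 1 to 3 had 49, 52 and 70 counts. In CPM these were 0.738, 0.210 and 0.496 against 1.51, 1.72 and 2.24, so that the sham mice varied more in proportion than the BCAS mice. The log2 fold change was 1.91 ± 0.44 (SE; adjusted P = 0.0111 by edgeR), and it was 1.56 without sham mouse 2, which had the fewest counts. Mgl2, the closely related neighbour gene that encodes MGL2, had 0.266 to 0.612 CPM in sham mice and 0.464 to 1.70 CPM in BCAS mice and did not pass (log2 fold change 1.34, edgeR adjusted P = 0.0916). Reads that align equally well to such paralogs were not counted, so both values may be too low.

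Lyve1 (ENSMUSG00000030787.4, chromosome 7, 110850607 to 110863239) encodes a receptor for hyaluronan that is found on macrophages along vessels and in the leptomeninges, and on lymphatic endothelium. It had 39, 33 and 33 counts in sham mice 1 to 3 and 18, 50 and 38 counts in BCAS mice 1 to 3. In CPM the sham mice were within 0.962 to 1.15, while BCAS mouse 1 lay below them at 0.554 and BCAS mice 2 and 3 above them at 1.66 and 1.22. The log2 fold change was 0.14 ± 0.41 (SE; 95% interval -0.79 to 1.07; adjusted P = 0.825 by edgeR). The interval reaches from a fall to a rise of about the size seen for Cbr2 (1.03). The sign depended on BCAS mouse 2, without which the value was -0.23. Of 6 lymphatic endothelium genes, Ccl21a had 0 counts in every library and Mmrn1 0.146 CPM or less. Pdpn was an up-regulated DEG (8.01 ± 1.34 and 26.7 ± 4.04 CPM, SD, n = 3 each), and Flt4 rose by 0.61 (adjusted P = 0.0470 by edgeR). Prox1 and Reln, which hippocampal neurons also express, did not pass, and the 6 genes summed to 151 to 184 CPM under sham and to 172 to 213 CPM under BCAS. Their part in the level of Lyve1 was not tested.

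F13a1 (ENSMUSG00000039109.16, chromosome 13, 36867178 to 37050244) encodes the A subunit of coagulation factor XIII, a transglutaminase that crosslinks fibrin. Its level was 3.87, 2.04 and 3.06 CPM in sham mice 1 to 3 and 7.14, 7.13 and 8.88 CPM in BCAS mice 1 to 3. All BCAS mice were well above the sham mice, of which mouse 2 was again lowest. Mean levels were 2.99 ± 0.918 CPM under sham and 7.72 ± 1.01 CPM under BCAS (SD, n = 3 each), and the log2 fold change was 1.37 ± 0.24 (SE; adjusted P = 0.00329 by edgeR).

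Pf4 (ENSMUSG00000029373.7, chromosome 5, 90772435 to 90773383) encodes platelet factor 4, the chemokine CXCL4, which is made by megakaryocytes and by border-associated macrophages. It had 0.826, 0.988 and 1.40 CPM in sham mice 1 to 3 and 1.17, 2.39 and 1.67 CPM in BCAS mice 1 to 3. BCAS mouse 1 was within the range of the sham mice. Its log2 fold change was 0.70 ± 0.36 and did not pass (SE; 95% interval -0.11 to 1.50; adjusted P = 0.170 by edgeR). With 1 mouse left out it ran from 0.40 (without BCAS mouse 2) to 0.93 (without sham mouse 3). Of 8 platelet genes, Ppbp had at most 0.308 CPM, Gp9 at most 0.834 CPM, and Gp1bb and Gp6 were at 0 in every BCAS mouse. Itga2b had 1.86 to 2.07 CPM under sham and 1.89 to 2.63 CPM under BCAS, and Gp1ba 0.449 to 0.620 and 0.663 to 1.92 CPM, and neither passed. 2 genes of that list were up-regulated DEGs, Clec1b with 0.492 to 0.673 CPM and Treml1 with 0.321 to 0.431 CPM in BCAS mice, and the summed level of the list was 2.66 to 3.15 CPM in sham mice and 3.75 to 6.44 CPM in BCAS mice. Its part in the level of Pf4 was not tested.

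Cbr2 (ENSMUSG00000025150.10, chromosome 11, 120729489 to 120732114) encodes a carbonyl reductase that inactivates reactive aldehydes and ketones. It had 34, 30 and 43 counts in sham mice 1 to 3 and 75, 56 and 72 counts in BCAS mice 1 to 3. The corresponding levels were 1.00, 0.898 and 1.25 CPM in sham mice and 2.31, 1.86 and 2.31 CPM in BCAS mice, so the groups were apart. The log2 fold change was the smallest among the DEGs at 1.03 ± 0.27 (SE; adjusted P = 0.0186 by edgeR). It lay just past the threshold of 1, and the call was lost without sham mouse 1, sham mouse 2, BCAS mouse 1 or BCAS mouse 3, with log2 fold changes of 0.93 to 1.00 and edgeR adjusted P values of 0.0525 to 0.0702.

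**Figure D2:**
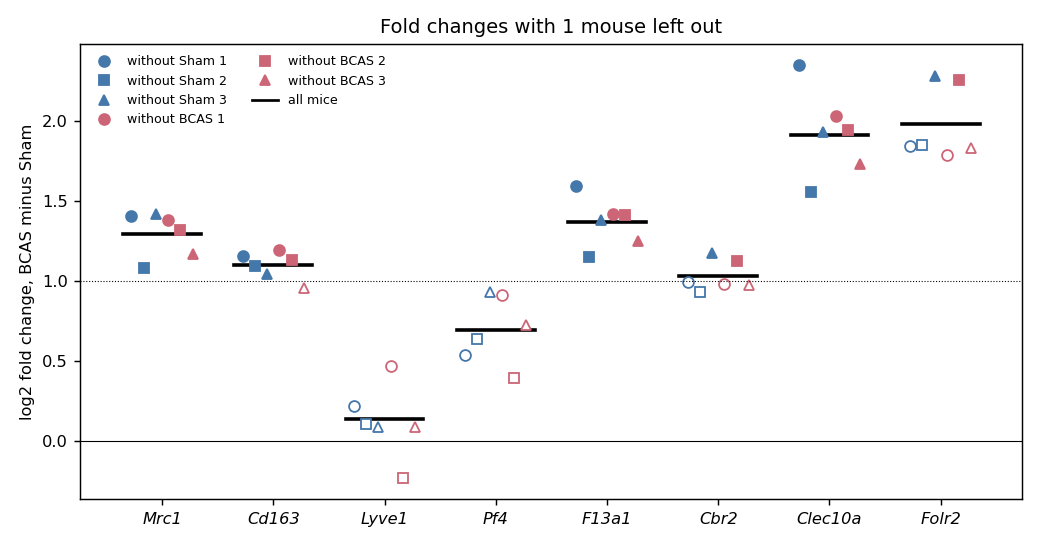
Log2 fold change (BCAS minus sham) of each gene with all mice (black line) and with 1 mouse left out (points; colour and symbol name the mouse), filled where the gene was a DEG in that fit. Mrc1, F13a1 and Clec10a were DEGs in all 6 fits, Cd163 in 5, Cbr2 and Folr2 in 2 each, and Lyve1 and Pf4 in 0.

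Between genes, levels are comparable only per length, and they are given here as CPM per kilobase of exon. In sham mice the order was Pf4 (1.49 ± 0.410), Mrc1 (0.811 ± 0.222), Cbr2 (0.793 ± 0.138), F13a1 (0.443 ± 0.136), Lyve1 (0.354 ± 0.035), Cd163 (0.335 ± 0.026), Clec10a (0.166 ± 0.0912) and Folr2 (0.0953 ± 0.032; SD, n = 3 each). Pf4 stood above Mrc1, Cbr2 above F13a1 and Cd163 above Clec10a in every sham mouse, whereas the ranges of all other neighbours in this order overlapped. In BCAS mice the first 4 kept their order, at 2.42 ± 0.849, 1.99 ± 0.294, 1.63 ± 0.197 and 1.15 ± 0.150, although the range of Pf4 included that of Mrc1. Lyve1 moved from rank 5 to rank 7, at 0.392 ± 0.190, behind Cd163 at 0.721 ± 0.121 and Clec10a at 0.630 ± 0.131. The ranges of Clec10a, Lyve1 and Folr2 overlapped with their neighbours in BCAS mice. The Folr2 value divides by its whole exonic length, although its counts come from 571 bases. Over the exonic bases that no other gene shares, a length chosen after seeing the overlap, Folr2 had 0.258 ± 0.0862 under sham and 1.04 ± 0.396 under BCAS (SD, n = 3 each). On that length it ranked 7 in place of 8 under sham, above Clec10a, and 5 under BCAS, where Lyve1 came to rank 8.

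The levels of the other 7 genes were also taken as ratios to that of Mrc1 within each library. F13a1 had 0.649, 0.576 and 0.510 times the CPM of Mrc1 in sham mice 1 to 3 and 0.641, 0.584 and 0.601 times in BCAS mice 1 to 3, and the groups overlapped (exact permutation test, two-sided, P = 0.5). Cd163 had 0.282 to 0.517 times the CPM of Mrc1 in sham mice and 0.304 to 0.317 times in BCAS mice, which also overlapped (P = 0.6, exact permutation test). For Lyve1 the ratio was 0.193, 0.280 and 0.160 in sham mice and 0.0497, 0.136 and 0.0824 in BCAS mice, where every BCAS mouse was below every sham mouse, as was the case for 78.5% of all other tested genes set against Mrc1. For Clec10a the ratio was 0.124, 0.0593 and 0.0825 in sham mice and 0.135, 0.141 and 0.152 in BCAS mice, with every BCAS mouse above, which held for 3.55% of the other tested genes. Both of these gave P = 0.1 in the exact two-sided permutation test, which is the smallest value that 3 mice against 3 allow. The ratios of Pf4 (P = 0.2), Cbr2 (P = 0.2) and Folr2 (P = 0.3; exact permutation tests) overlapped between the groups, and these 7 P values were not adjusted.

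A wider list of 18 genes known from border-associated macrophages was examined beside the 8. Of the 16 that could be tested, 12 rose at an adjusted P below 0.05 (as did 18.0% of all tested genes), 10 of these were up-regulated DEGs, none fell, and 4 did not pass. Their median log2 fold change was 1.54. The largest rises were those of Siglec1, the sialic acid receptor CD169, at 5.03 ± 0.51 (SE; adjusted P = 1.77e-04 by edgeR) and of Ms4a7, a membrane protein, at 4.09 ± 0.47 (SE; adjusted P = 3.33e-04 by edgeR). Siglec1 had 0.236 to 0.389 CPM in sham mice and 4.25, 9.98 and 15.2 CPM in BCAS mice 1 to 3. Ms4a7 had 0.148 to 0.466 CPM in sham mice and 3.42, 7.46 and 3.88 CPM in BCAS mice 1 to 3. The scavenger receptor Stab1 rose from 17.2 ± 2.59 to 64.1 ± 22.4 CPM and the endocytic adaptor Dab2 from 17.7 ± 3.46 to 46.3 ± 10.7 CPM (SD, n = 3 each), with log2 fold changes of 1.89 and 1.39. Maf, a transcription factor of these cells, rose by less, at 0.83 (edgeR adjusted P = 4.28e-04), and was not a DEG. The 4 genes that did not pass were Mgl2, Cd36 (0.66), Pla2g2d (0.75) and Blvrb (0.54, edgeR adjusted P = 0.0554). Several genes of this list, such as Siglec1, Ms4a7 and Clec12a, are also turned on in activated microglia or in infiltrating monocytes, and others, such as Maf, Ednrb and Dab2, are expressed by further cell types of the brain.

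**Figure D3:**
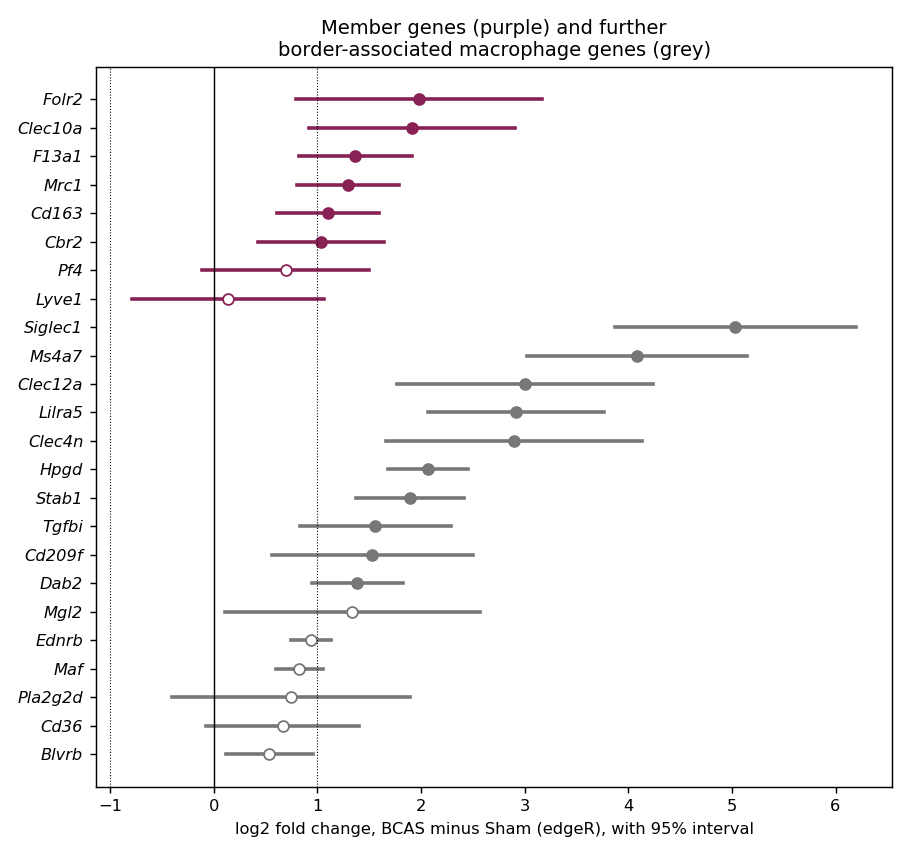
Log2 fold change (BCAS minus sham) with 95% interval for the 8 genes (purple) and the 16 tested genes of the wider list (grey), filled where the gene was a DEG and with dotted lines at -1 and 1. The 8 genes lie between 0.14 and 1.98, and the wider list between 0.54 and 5.03.

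Genes that brain myeloid cells share, microglia included, are given beside the 8 as a reference. All 12 tested genes of the shared myeloid list were up-regulated DEGs, with a median log2 fold change of 3.36 and a range of 2.58 to 3.99, so that the smallest, that of Csf1r, the receptor on which both microglia and border-associated macrophages depend, exceeded the largest of the 8 genes (1.98). All 12 homeostatic microglia genes were up-regulated DEGs as well, with a median of 2.03 and a range of 1.07 (Slc2a5) to 3.54 (Fcrls). To set the genes against these within each library, the log2 CPM of each gene minus the mean log2 CPM of the list was taken. Relative to the shared myeloid list all 8 genes were lower in every BCAS mouse than in every sham mouse, as were 97.1% of all tested genes, so this count says nothing particular about the 8. Mrc1 stood 1.36, 2.01 and 1.49 below that list in sham mice 1 to 3 on the log2 scale, and 3.55, 3.59 and 3.86 below it in BCAS mice 1 to 3 (difference between groups -2.04, exact permutation test P = 0.1, the smallest possible). The difference was largest for Lyve1 (-3.34) and smallest for Clec10a (-1.45). Relative to the homeostatic microglia list 6 of the 8 genes were lower in every BCAS mouse, where the share over all tested genes was 92.5%. The exceptions were Clec10a (difference -0.28, P = 0.6) and Folr2 (-0.60, P = 0.3; exact permutation tests), whose groups overlapped. These 2 differences depended on the prior count used for log2 CPM. With 0.5 in place of 2 they were -0.16 for Clec10a (P = 0.8) and -0.34 for Folr2 (P = 0.4; exact permutation tests), again with overlap.

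**Figure D4:**
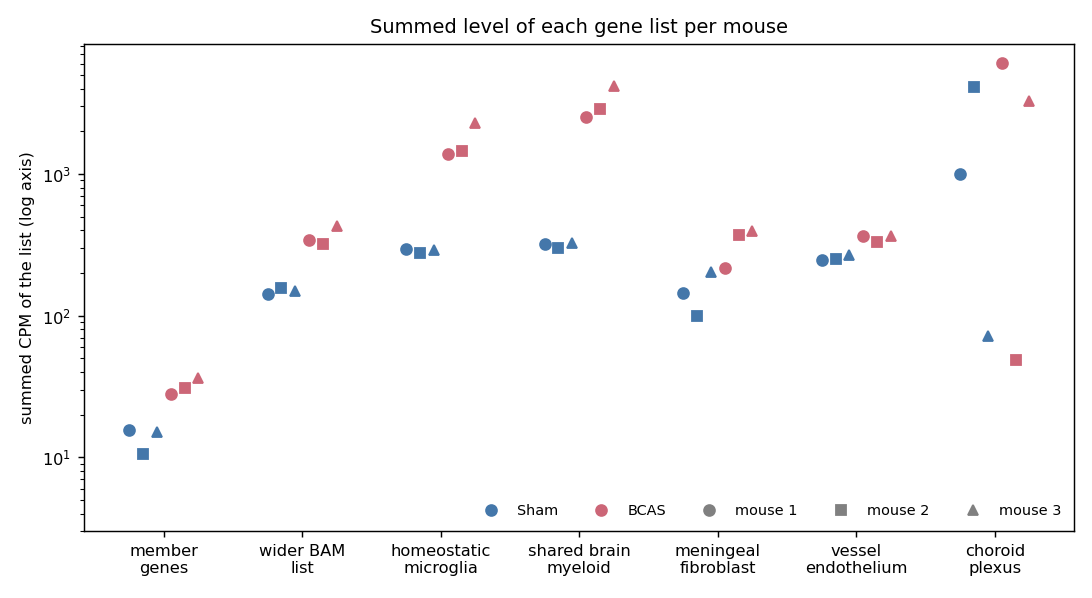
Summed CPM (log axis) of 7 gene lists in each sham mouse (blue) and BCAS mouse (red), with symbols for mice 1 to 3. The 8 border-associated macrophage genes sum to 10.6 to 15.6 CPM in sham mice and 28.0 to 36.5 CPM in BCAS mice, while the shared brain myeloid list goes from 299 to 326 CPM to 2531 to 4158 CPM and the choroid plexus list varies within both groups.

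Markers of neighbouring cell types moved with the groups to different degrees. Of 8 meningeal fibroblast genes, 5 were up-regulated DEGs (8.47% of all tested genes were) and 2 did not pass. Their summed level was 145, 100 and 204 CPM in sham mice 1 to 3 and 217, 370 and 393 CPM in BCAS mice 1 to 3. The collagen gene Col1a1 rose from 13.9 ± 6.16 to 60.8 ± 27.7 CPM, whereas Dcn, the most abundant fibroblast gene of the list, had 74.2 ± 28.1 and 89.2 ± 18.5 CPM (SD, n = 3 each; log2 fold change 0.27, edgeR adjusted P = 0.479). Sham mouse 2 had both the lowest fibroblast sum and the lowest sum of the 8 genes (10.6 CPM, against 15.6 and 15.1 CPM in sham mice 1 and 3). How far the amount of attached meninges entered the levels of the 8 genes was not tested. Of 7 tested monocyte genes, 5 were up-regulated DEGs, among them Ccr2, the chemokine receptor of entering monocytes, with 0.419 to 0.554 CPM in sham mice and 3.05 to 5.64 CPM in BCAS mice. The part of monocyte-derived cells in the 8 genes was not tested. Of 6 blood vessel endothelium genes, 4 rose by the adjusted P, none was a DEG, and the median was 0.47 on the log2 scale. Of 6 tested dendritic cell genes, which matter for Clec10a, 1 was an up-regulated DEG (Xcr1, at most 0.385 CPM) and 5 did not pass. Ccr7, also on that list, was not tested and had 0 to 4 counts in sham mice and 7 to 34 counts in BCAS mice. Every BCAS mouse lay above every sham mouse for Ccr7, Xcr1 and Itgae, as for 25.3% of all tested genes. For Flt3 every BCAS mouse lay below, and the other genes of the list overlapped. The part of dendritic cells in the level of Clec10a was not tested. With the summed level of the choroid plexus genes as a covariate, an alternative chosen after seeing how unequal that level was, the same number of genes (6) were DEGs, and the log2 fold changes of the 8 genes ran from 0.12 for Lyve1 to 1.94 for Clec10a.

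Partners in the pathways of these receptors were examined from a list of 20 genes, of which 17 were tested, 13 were up-regulated DEGs, none fell and 4 did not pass. The share of up-regulated DEGs over all tested genes was 8.47%. Behind Cd163, which delivers haemoglobin for breakdown, the haem oxygenase gene Hmox1 rose from 4.55 ± 0.598 to 17.9 ± 4.46 CPM (SD, n = 3 each; log2 fold change 1.97, edgeR adjusted P = 1.59e-04), and Hp, which encodes haptoglobin, rose by 2.22 (edgeR adjusted P = 0.0182) at 0.233 to 0.389 CPM in sham mice and 0.492 to 2.22 CPM in BCAS mice. None of 5 tested erythrocyte genes, a measure of blood left in the tissue, passed, with log2 fold changes of 0.08 (Hba-a2) to 0.71 (Alas2). The list summed to 85.9 to 102 CPM under sham and to 106 to 178 CPM under BCAS. For Hbb-bs (log2 fold change 0.51, edgeR adjusted P = 0.0512), Hbb-bt and Hba-a1 every BCAS mouse lay above every sham mouse, as for 25.3% of all tested genes, and for Hba-a2 and Alas2 the groups overlapped. The part of blood in the levels of Hmox1 and Hp was not tested. Among hyaluronan genes, the receptor Cd44 rose by 2.82 ± 0.21 (SE; adjusted P = 4.05e-05 by edgeR) and the synthase Has2 by 1.86 (edgeR adjusted P = 0.00979), beside a value of 0.14 for Lyve1 and of -0.52 for the hyaluronan receptor Stab2 (edgeR adjusted P = 0.252). Of the growth factors that act on Csf1r, Csf1 rose from 31.1 ± 0.910 to 104 ± 17.0 CPM (log2 fold change 1.75), while Il34 had 45.4 ± 3.68 and 33.0 ± 8.55 CPM (SD, n = 3 each; -0.46, edgeR adjusted P = 0.0636). Il4ra, a receptor chain for the interleukins that induce Mrc1 and Clec10a in cultured macrophages, rose by 2.18 and its transcription factor Stat6 by 1.72. Among these interleukins, Il4 had 12.6 to 16.7 CPM under sham and 8.08 to 13.9 CPM under BCAS and did not pass (log2 fold change -0.35, edgeR adjusted P = 0.236). Strand was ignored in the counting, and whether RNA from neighbouring genes entered the Il4 counts was not tested. Il13, and also the interleukin gene Il10, had 0 counts in every library, which allows up to 3 counts or 0.0875 to 0.0995 CPM.

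Relatives of the 8 proteins were compared from a list of 19 genes, of which 15 were tested, 6 were up-regulated DEGs, 1 fell and 8 did not pass. Among all tested genes, 8.47% were up-regulated DEGs. Cd5l rose most, by 10.4 ± 1.71 (SE; adjusted P = 0.00471 by edgeR), with 0 counts in every sham mouse and 31, 333 and 124 counts in BCAS mice 1 to 3. With no sham counts the size of that value is imprecise. Cd163l1 did not pass (0.36, edgeR adjusted P = 0.600). Mrc2, the collagen-binding relative of the mannose receptor, rose from 10.2 ± 2.34 to 40.5 ± 7.96 CPM (log2 fold change 1.98), more than Mrc1 at 1.30, and the difference between these values was not tested. Tgm1, a transglutaminase of the same family as F13a1, rose by 6.61 from 0.058 to 0.180 CPM in sham mice to 5.76, 9.58 and 14.6 CPM in BCAS mice 1 to 3. Tgm2 rose by 1.11. Dcxr, a reductase related to Cbr2, rose by 1.09 (edgeR adjusted P = 0.00303), and Cbr4 fell by 0.34 (edgeR adjusted P = 0.0369) without being a DEG, where 13.2% of all tested genes fell at this adjusted P. Folr1, the folate receptor of choroid plexus epithelium, is itself on the choroid plexus list and followed the other markers there, not the groups. It had 0.671 to 30.5 CPM in sham mice and 1.06 to 50.1 CPM in BCAS mice. Folr2 was lowest among BCAS mice in mouse 2 and highest among sham mice in mouse 3, the libraries with the least choroid plexus RNA of their groups, and with the choroid plexus covariate its log2 fold change was 1.87 (edgeR adjusted P = 0.0282).

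The genes outside the list whose profile over the 6 libraries was nearest to the mean profile of the 8 were Scarf2, Itpr3, Map3k8, Slc10a3 and Slc13a3. Nearness was the root-mean-square difference of log2 CPM, each gene taken relative to its sham mean, over 15624 genes with a mean of at least 1 CPM. It was 0.062 for Scarf2, which encodes a scavenger receptor-like protein and had 7.88 CPM in sham mice and 17.0 CPM in BCAS mice, and 0.096 for Slc13a3, a transporter of dicarboxylates. All 5 were up-regulated DEGs, with log2 fold changes of 1.04 to 1.23. Values of this size follow from the choice by nearness to a profile that rises in BCAS mice, and are no separate result. The likeness rests on 6 libraries in 2 groups and carries no statement on a shared cell type.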

How the data were processed

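Total RNA of the right hippocampus was sequenced as paired reads in 6 libraries. The authors trimmed reads with Trim Galore, aligned them to mm10 with HISAT2 and deposited raw counts per gene. Per the file headers, featureCounts 2.0.3 with a GENCODE annotation was used, where the methods name version 1.6.3 and RefSeq genes. Both mates were counted, strand was ignored, and reads on several genes or places were left out. Libraries were assigned by their labels, and BCAS libraries 1 to 3 bear the numbers 2 to 4 inside the files. Symbols were matched by Ensembl identifier (29 of 54752 unmatched).

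Counts were analysed in R 4.3.3 with edgeR 4.0.16 (filterByExpr, TMM, quasi-likelihood test without a replicate block), with DESeq2 1.42.0 and limma 3.58.1 as alternatives. The fit was tested on simulated data. Log2 CPM used a prior count of 2. The 8 genes, the lists and the motifs were chosen with earlier results of these data known. Named genes are the 8, genes of a reported list, and the 5 nearest profiles. Single values were compared by exact permutation of 3 against 3 mice, which cannot go below P = 0.1. Limits for a count of 0 cover counting error only. Other measurements of the study were not analysed here.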

Additional observations from a re-analysis of the deposited data

How the results depend on the processing

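The number of the 8 genes called as DEGs (6) was 6 with DESeq2, limma-voom, RLE normalization, library totals, both other filters and no fold change threshold. It was 5 with every count divided by 2 (each read pair gave up to 2 counts) and 5 with counts thinned to the smallest library, where Folr2 no longer reached the filter. With edgeR's glmTreat, which tests against a log2 fold change of 1, it was 0 of the 8 genes and 818 of all genes, and without a fold change threshold 5819 of all genes passed. Replicate numbers were not taken as pairs: deviations of same-numbered libraries correlated at 0.04, -0.31 and -0.16. With the replicate block 6 of the 8 genes and 1595 of all genes were DEGs, against 1762 without it. With 1 mouse left out, 3 to 6 of the 8 genes were DEGs, with 4 to 6 under the adjusted P alone, 1306 to 1976 of all genes, and a median of the 8 between 1.07 and 1.29. The lowest count, 3 (Mrc1, F13a1 and Clec10a), came without BCAS mouse 3. Lyve1 reversed with limma-voom (log2 fold change -2.93e-04) and without BCAS mouse 2 (leave-one-out range -0.23 to 0.47), with no call in any fit. The median over all genes was 0.09 with library totals in place of 0.02. Depth limits Folr2 most (4 to 24 counts in a library), and Lyve1, Pf4, Cbr2 and Clec10a also stayed at 75 counts or fewer in every library.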
